A study of Arabidopsis thaliana with 4 samples.

Results

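The genes described here encode subunits of the 26S proteasome of Arabidopsis thaliana, together with NAC53 (AT3G10500) and NAC78 (AT5G04410), which encode transcription factors that act on proteasome genes. They were taken from the deposited table by locus code, which gave 42 of its 31346 genes, made up of 40 subunit genes and both factors. The series measured RNA in whole seedlings, 6 d old, of wild type (WT, 2 libraries) and of a line with constitutive overexpression of ClpD in the WT background (ClpD-OE, 2 libraries). CLPD encodes a chaperone of the chloroplast Clp protease. Both ClpD-OE libraries appear to come from the same line, labelled #5, so that the effect of ClpD cannot be told apart from that of any other trait of the line. Which promoter drives the transgene, and from which natural accession the plants came, was not given in the sources used here. The labels do not say whether replicates were grown separately, and the p-values therefore measure a spread between libraries that may be technical.

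The 26S proteasome degrades proteins that carry a ubiquitin chain. Its barrel, the 20S core, is built of rings of alpha subunits (genes PAA to PAG), which gate the entry, and rings of beta subunits (PBA to PBG), of which PBA, PBB and PBE carry the proteolytic sites. A 19S regulatory particle caps the core. Its base holds a ring of AAA-ATPases (RPT) that unfold substrates, with the scaffold subunits RPN1 and RPN2 and the ubiquitin receptor RPN10, and its lid (RPN3, RPN5 to RPN9, RPN11 and RPN12) removes the ubiquitin chain. Most subunits have a pair of genes in Arabidopsis. NAC53 and NAC78 are made as membrane-tethered proteins and activate proteasome subunit genes when proteasome activity is impaired, through a promoter element with the core TGGGC.

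Levels are given for replicates 1 and 2 in that order, as CPM (counts scaled to a common library size, here with TMM factors). CLPD itself stood at 151 and 147 CPM in WT against 1669 and 1870 CPM in ClpD-OE, 11.9-fold higher. Total counts were 20800842 to 23294451 per library, 18940 genes were tested, and all 42 genes described here passed the filter on low counts. The 3 leaf marker genes (RBCS1A, LHCB1.3, LHCB2.1) were all lower in ClpD-OE, with a summed level of 52583 and 51172 CPM in WT against 35417 and 35306 CPM. Of the 5 root markers, PYK10 made up nearly all of a summed level of 1223 to 1340 CPM in WT and 1256 to 1288 CPM in ClpD-OE. CASP1 had 0.583 and 0.727 CPM in WT and 1.04 and 1.94 CPM in ClpD-OE. NRT2.1 went the other way, with 1.33 and 1.36 CPM in WT and 0.360 and 1.09 CPM in ClpD-OE. Neither passed the test described below. The root hair genes COBL9 and EXPA7 had 0 to 4 counts in every library although the tissue is labelled as whole seedlings, and the 5 seed reserve genes summed to less than 1 CPM, with CRU3 at 0 throughout. Whether the lower leaf markers have a part in the values below was not tested. In RNA of whole seedlings, fewer cells of a type and less RNA per cell cannot be told apart.

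RPN8B, RPT5B, RPT6B, RPT3, RPN11 and RPN2B, all genes of the regulatory particle, were higher in ClpD-OE, by 1.41-fold to 2.19-fold. The other 34 subunit genes did not pass the test, and 32 of them had a positive log2 fold change, against 50.1% of all genes. Of the 42 genes, 6 were called higher and 0 lower (quasi-likelihood test of edgeR, Benjamini-Hochberg adjusted p under 0.05). Over all genes tested, 4.29% were called higher and 3.91% lower. At an unadjusted p under 0.05, 23 of the 42 were higher and 0 lower, where 14.2% of all genes were higher and 14.1% lower. DESeq2 also called 6 higher and 0 lower, against 4.96% and 6.1% of the genes it tested. The sum of the 40 subunit transcripts was 2639 and 2706 CPM in WT and 3233 and 3140 CPM in ClpD-OE, so that the groups did not overlap. The median log2 fold change of the 40 subunit genes was 0.26, with a range from -0.07 to 1.13, while the median of all genes tested was 0.0011. Between the replicates of a group the same genes had median log2 differences of 0.043 (WT replicate 2 minus 1) and -0.058 (ClpD-OE replicate 2 minus 1). Both ClpD-OE libraries lay above both WT libraries in 36 of the 42 genes, which held for 30.5% of all genes, and 1 gene, RPN8A, had both below, as did 29.4% of all genes. With library totals in place of TMM the median of all genes moved to 0.225, the subunit median to 0.48, and 29 of the 42 genes were called higher, where 14.3% of all genes were (2699 higher and 577 lower against 812 and 740). Without WT replicate 1, 2 of the 42 were called higher (RPN8B and RPT5B; 1.06% of all genes), and without WT replicate 2, 4 were (RPT6B and RPT3 as well; 6.07% of all genes). Without either ClpD-OE library edgeR kept no call for any gene in the table. The median log2 fold change of the 40 subunit genes was then 0.24 (without ClpD-OE replicate 1) and 0.27 (without ClpD-OE replicate 2).

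**Figure D1:**
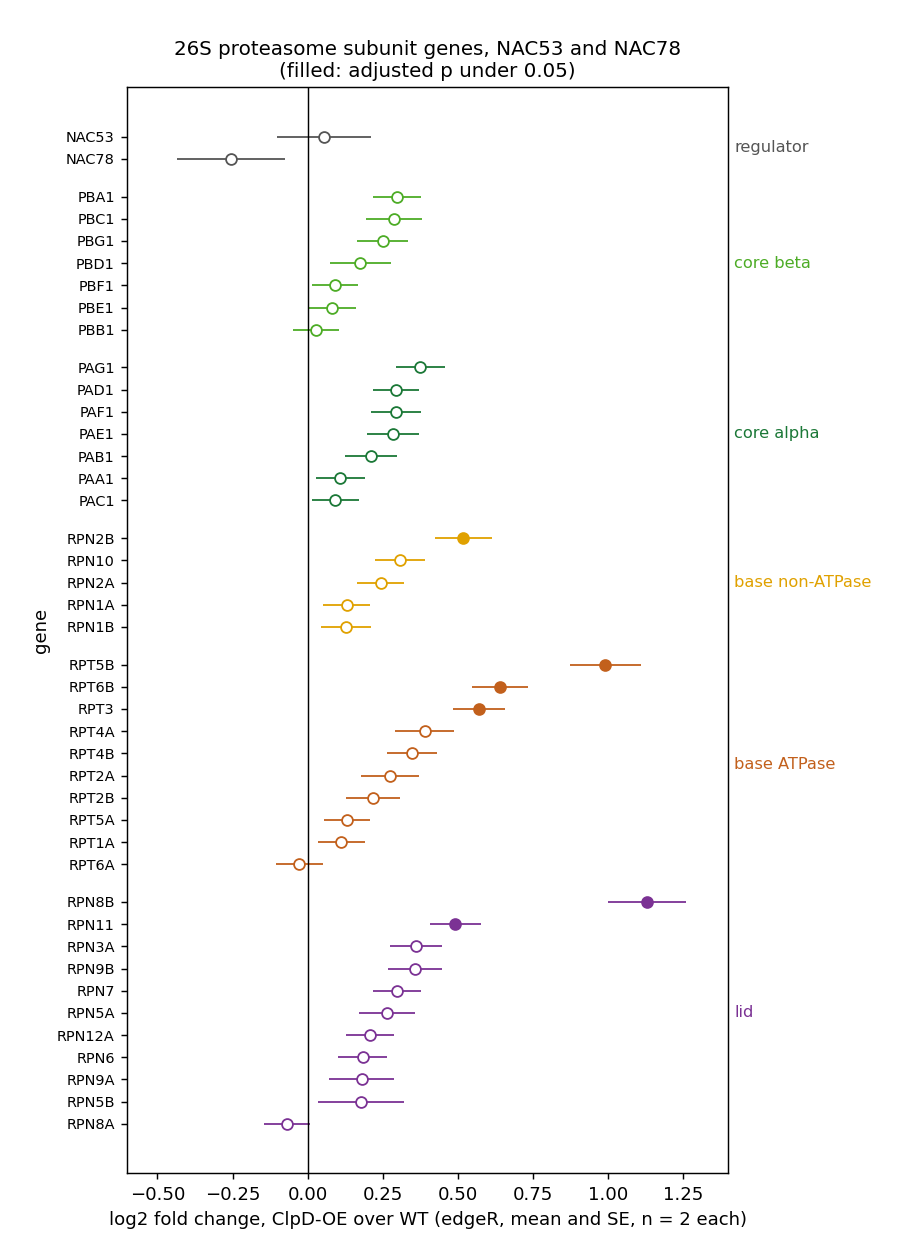
Log2 fold change of ClpD-OE over WT (x axis, edgeR estimate with its SE, 2 libraries each) for each of the 42 genes (y axis), grouped by role. Filled points passed an adjusted p under 0.05. The 6 filled points lie in the lid and base, the highest at 1.13 (RPN8B), and the 14 core genes lie between 0.03 and 0.37.

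In the lid, 2 of 11 genes were higher (4.29% of all genes tested were). Of the 11, 10 had a positive log2 fold change (50.1% of all genes), and the median was 0.26. RPN8B (AT3G11270, chromosome 3) encodes the partner that pairs with the deubiquitylase RPN11 and lacks its catalytic activity. Its counts were 221 and 277 in WT libraries and 734 and 637 in those of ClpD-OE. That is 11.7 and 13.4 CPM against 29.3 and 25.7 CPM, so that the higher WT library stood well below the lower ClpD-OE library. Its log2 fold change was 1.13 (SE 0.131), 2.19-fold, with an edgeR adjusted p = 0.0218. RPN11 (AT5G23540, chromosome 5), the metalloprotease that cuts ubiquitin chains off substrates, had 62.6 and 60.4 CPM in WT and 89.6 and 83.5 CPM in ClpD-OE. The replicates of each group lay close together, and RPN11 was 1.41-fold higher (log2 0.49, SE 0.0838, edgeR adjusted p = 0.0352). It overlaps a gene on the other strand by 8 bases, and whether reads were counted by strand was not given in the sources used here, so reads of such partners cannot be separated. Of the 42 genes, 11 overlap a gene on the other strand. The other 9 lid genes ran from -0.07 (RPN8A) to 0.36 (RPN3A) on the log2 scale, with adjusted p-values of 0.0697 to 0.615. RPN3A, RPN7 and RPN9B had adjusted p-values between 0.05 and 0.10. RPN5B, which had the lowest level per length of the 40 subunit genes (9.46 FPKM over all libraries), was the only lid gene whose groups overlapped.

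In the base, 4 of 15 genes were higher (4.29% of all genes tested were). Of the 15, 14 had a positive log2 fold change (50.1% of all genes), and the median was 0.27. Of the 10 ATPase genes 3 were higher. RPT5B (AT1G09100, chromosome 1) encodes an ATPase whose C-terminal tail docks into the alpha ring of the core, as known from yeast. Its WT counts were 357 and 368 and its ClpD-OE counts 984 and 836, or 18.9 and 17.8 CPM against 39.3 and 33.8 CPM. The WT replicates were close to each other, the ClpD-OE replicates less so, and the groups stood far apart. RPT5B was 1.99-fold higher (log2 0.99, SE 0.119, edgeR adjusted p = 0.0223). A stretch of 59 of its 2836 bases overlaps a gene on the other strand. RPT6B (AT5G20000, chromosome 5) had 34.9 and 36.6 CPM in WT and 58.3 and 53.1 CPM in ClpD-OE, and was 1.56-fold higher (log2 0.64, SE 0.0928, edgeR adjusted p = 0.0275). RPT3 (AT5G58290, chromosome 5), an ATPase listed here with 1 gene, had 94.7 and 104 CPM in WT and 147 and 149 CPM in ClpD-OE, 1.49-fold higher (log2 0.57, SE 0.0867, edgeR adjusted p = 0.0294). In each of these ATPase genes the groups were separate. Among the 5 base genes that are not ATPases, RPN2B (AT1G04810, chromosome 1), which encodes a copy of the large scaffold subunit RPN2, was higher. Its level was 54.0 and 51.5 CPM in WT and 80.0 and 71.2 CPM in ClpD-OE, 1.43-fold (log2 0.52, SE 0.0946, edgeR adjusted p = 0.0401). The 11 base genes that did not pass ran from -0.03 (RPT6A) to 0.39 (RPT4A), with adjusted p-values of 0.0694 to 0.852. RPN10 had 76.7 and 82.7 CPM in WT and 98.9 and 98.6 CPM in ClpD-OE (log2 0.31, edgeR adjusted p = 0.0852), and its groups did not overlap.

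In the core, 0 of 14 genes were called higher or lower by edgeR or DESeq2. This depended on the scaling, since with library totals edgeR called 8 of the 14 higher, and 21 of the 26 genes of the regulatory particle. With that scaling 14.3% of all genes were called higher. It also depended on which copies were listed. The second copies of core subunits lie outside the 42 genes, and of these PBB2 and PAA2 were called higher (edgeR adjusted p = 0.0347 and 0.0372). All 14 core genes among the 42 had a positive log2 fold change, against 50.1% of all genes. Of the 14, 7 were higher at an unadjusted p under 0.05, where 14.2% of all genes were higher. The median was 0.23, with 0.28 for the 7 alpha genes and 0.18 for the 7 beta genes. PAG1, which had the smallest p of these 7 alpha genes, had 79.1 and 77.4 CPM in WT and 105 and 98.0 CPM in ClpD-OE (log2 0.37, edgeR adjusted p = 0.0561). Of the genes for the proteolytic subunits, PBA1 had 94.6 and 100 CPM in WT and 120 CPM in each ClpD-OE library (log2 0.30, adjusted p = 0.0834 by edgeR). Its groups did not overlap. PBE1 had 86.0 and 89.0 CPM against 93.8 and 91.4 CPM (log2 0.08), and PBB1 68.8 and 71.1 CPM against 71.7 and 71.0 CPM (log2 0.03). PBB1 was the only core gene whose groups overlapped. Core, base and lid thus had medians of 0.23, 0.27 and 0.26. The difference between these groups of genes was not tested, and a p that misses the threshold does not show that the core genes stayed at the WT level.

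Transcripts of NAC53 and NAC78 did not pass the test in either direction. NAC53 was counted 314 and 268 times in WT, and 368 and 397 times in ClpD-OE, or 16.7 and 13.0 CPM against 14.7 and 16.0 CPM. The WT replicates enclosed the ClpD-OE values. Its log2 fold change was 0.05 (SE 0.157, edgeR adjusted p = 0.857). NAC78 had 77.3 and 55.2 CPM in WT and 59.6 and 51.4 CPM in ClpD-OE, with the highest value in WT replicate 1 and an overlap between groups. Its log2 fold change was -0.25 (SE 0.18, edgeR adjusted p = 0.413). The WT replicates differed by -0.36 for NAC53 and -0.48 for NAC78 (log2, replicate 2 minus 1), more than either difference between groups, and the sign of each log2 fold change depended on which library was left out. Per length, NAC78 lay above NAC53 in every library, with 26.9 against 5.56 FPKM in WT and 26.4 against 6.78 FPKM in ClpD-OE (means of the authors' values). NAC78 overlaps genes on the other strand by 375 and 81 of its 3001 bases. Levels of the NAC53 and NAC78 proteins and their release from the membrane were not measured in these data.

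**Figure D2:**
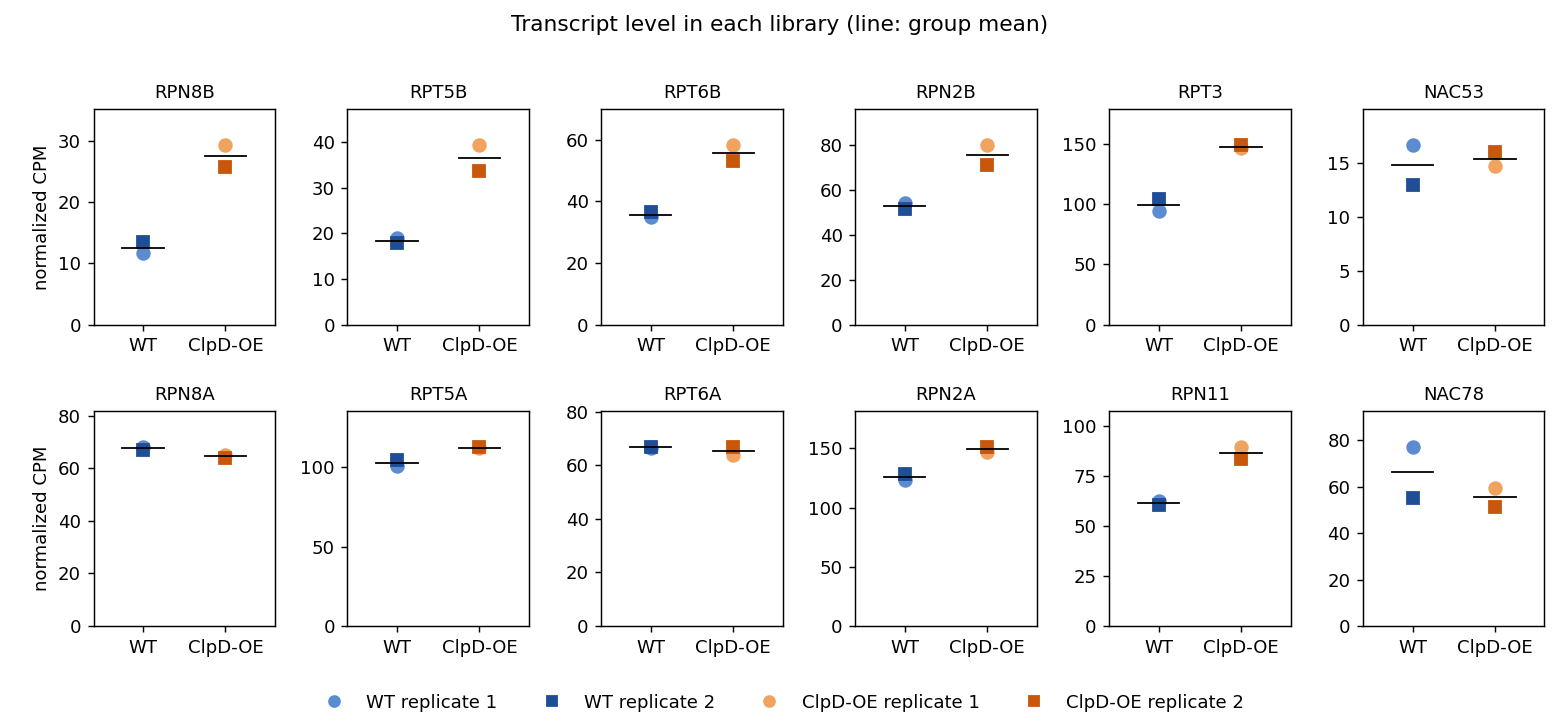
Normalized CPM (y axis, linear from 0) of 12 genes in each of the 4 libraries, with a line at the group mean. The upper row has the called member of 4 gene pairs, RPT3 and NAC53, and the lower row the other member of each pair, RPN11 and NAC78. RPN8B, RPT5B and RPT6B separate by group, whereas RPT6A, NAC53 and NAC78 overlap.

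The largest differences among the subunit genes lay within gene pairs. RPN8A (AT5G05780, chromosome 5) had 68.3 and 67.0 CPM in WT and 65.2 and 63.8 CPM in ClpD-OE, with a log2 fold change of -0.07 (SE 0.0769, edgeR adjusted p = 0.615) that turned to 0.16 with library totals, where its partner RPN8B was at 1.35. The log2 ratio of RPN8B to RPN8A was 1.17 higher in ClpD-OE than in WT. RPN8B made up 15.6% and 17.8% of the FPKM of the pair in WT, which became 32.7% and 30.3% in ClpD-OE. No other pair within the 42 genes moved as far. RPT5A (AT3G05530, chromosome 3) had 101 and 104 CPM in WT and 112 and 113 CPM in ClpD-OE (log2 0.13, SE 0.0769, edgeR adjusted p = 0.330). The ratio of RPT5B to RPT5A was 0.84 higher on the log2 scale, and the share of RPT5B went from 17.4% and 16.1% in WT to 28.3% and 25.1% in ClpD-OE. Apart from the pseudocount of 0.5 CPM, such a ratio does not depend on how libraries are scaled. RPT6A (AT5G19990, chromosome 5) had 66.6 and 66.7 CPM in WT and 63.8 and 67.0 CPM in ClpD-OE (log2 -0.03, edgeR adjusted p = 0.852), and 0.20 with library totals. RPT6B held 34.7% and 35.8% of the pair's FPKM in WT and 48.2% and 44.7% in ClpD-OE, a log2 ratio 0.66 higher. The RPT6 transcripts share 145 stretches of 50 bases, or 5.93% of those of RPT6A and 8.32% of those of RPT6B, so that the division of reads between them is less certain. RPN8, RPT5 and RPN2 transcripts share 0 such stretches. RPN2A had a log2 fold change of 0.24 (SE 0.0777, edgeR adjusted p = 0.120), and the RPN2B to RPN2A ratio was 0.27 higher.

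In the other subunit pairs within the 42 genes the ratio differed by less. The log2 ratio differed by 0.17 for RPN9B over RPN9A, by -0.0026 for RPN1, -0.04 for RPT4, -0.06 for RPT2 and -0.08 for RPN5 (B over A, ClpD-OE minus WT). For NAC78 over NAC53 it was -0.30, further from 0 than for RPN2. Of the 10 pairs, 7 had ratios that did not overlap between groups in one direction or the other, which for the levels of single genes held in 59.9% of all genes. An exact two-sided permutation test of 2 libraries against 2 cannot go below p = 0.333, so no pair could pass it. The copy with the lower FPKM had the larger log2 fold change in 7 of the 10 pairs, among them NAC53 and NAC78, of which neither passed. Among the 13 further pairs in which only 1 copy is among the 42 genes, which were added after values were seen, this held in 7. Over the 22 pairs of subunit genes it held in 13, where an even split is what no tendency would give. In the 13 further pairs the ratio differed by 0.49 for PBB2 over PBB1, 0.34 for PAA2 over PAA1 and -0.30 for RPN3B over RPN3A. For PAC2 over PAC1 it differed by 0.84, but PAC2 lay below the pseudocount in WT (0.477 and 0.436 CPM), and the log2 fold changes fitted to the genes themselves were 1.53 for PAC2 and 0.09 for PAC1. Across the 40 subunit genes, log2 mean FPKM and log2 fold change had a Pearson r of -0.38 and a Spearman rho of -0.20. This describes genes that share the same 4 libraries.

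**Figure D3:**
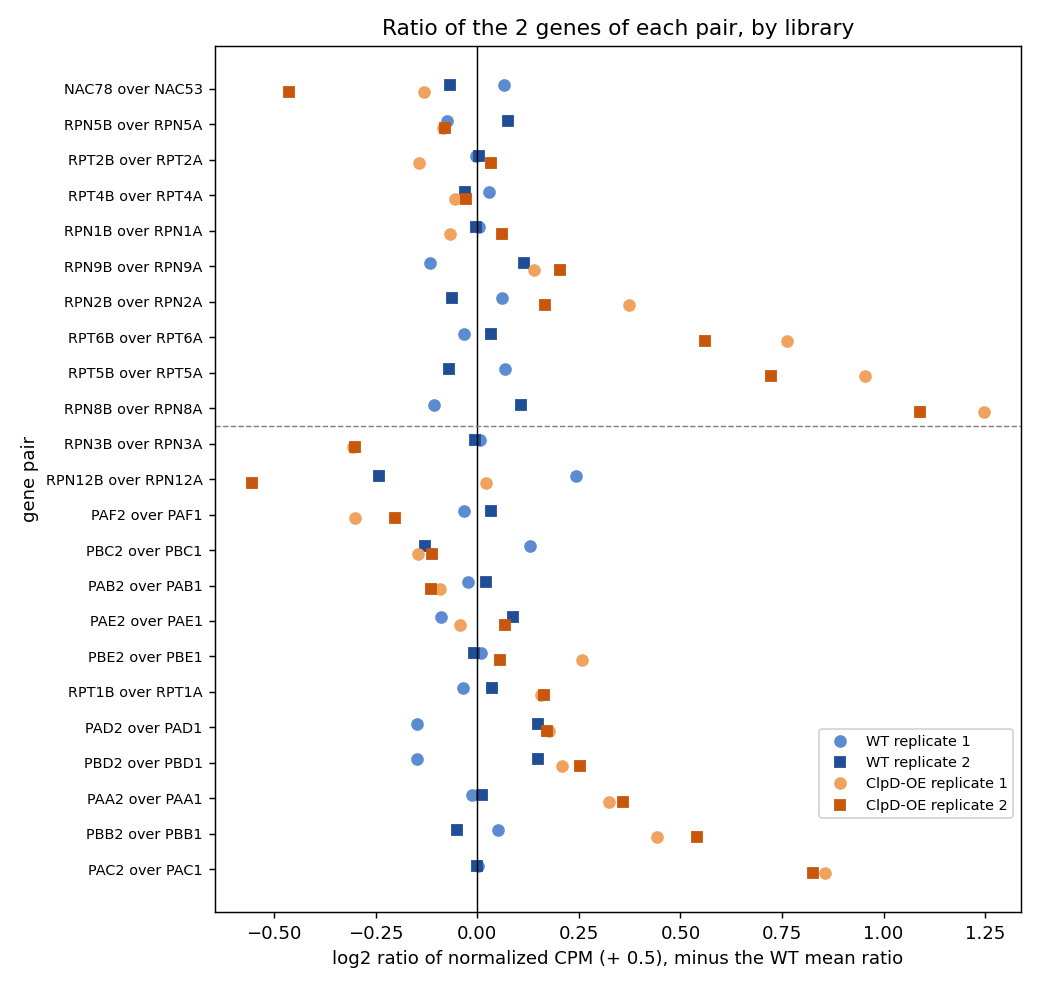
Log2 ratio of the copies of each pair in each library (x axis, normalized CPM + 0.5, with the mean ratio of the WT libraries set to 0), for 10 pairs within the 42 genes (above the dashed line) and 13 pairs with a copy outside them (below it). In the pairs of RPN8, RPT5 and RPT6 the ClpD-OE libraries lie far to the right of WT, at means of 1.17, 0.84 and 0.66, while RPN1, RPT2 and RPT4 stay near 0.

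Promoter windows are shown for RPN8B, the gene with the largest log2 fold change, and for RPT5A and RPT5B, whose log2 ratio differed by 0.84. Each is the stretch of 250 bases before the gene start in the RefSeq annotation of TAIR10.1, 5′ to 3′ on the strand of the gene, with TGGGC, or GCCCA where TGGGC lies on the other strand, in capitals. They are chr3:3528551-3528800 (plus strand) for RPN8B, chr3:1603109-1603358 (plus strand) for RPT5A and chr1:2939364-2939613 (minus strand) for RPT5B.
RPN8B: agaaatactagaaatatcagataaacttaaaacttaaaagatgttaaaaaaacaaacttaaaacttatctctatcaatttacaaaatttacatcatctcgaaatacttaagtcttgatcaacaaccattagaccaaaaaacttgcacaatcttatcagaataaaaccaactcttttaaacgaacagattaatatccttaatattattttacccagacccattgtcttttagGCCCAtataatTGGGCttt
RPT5A: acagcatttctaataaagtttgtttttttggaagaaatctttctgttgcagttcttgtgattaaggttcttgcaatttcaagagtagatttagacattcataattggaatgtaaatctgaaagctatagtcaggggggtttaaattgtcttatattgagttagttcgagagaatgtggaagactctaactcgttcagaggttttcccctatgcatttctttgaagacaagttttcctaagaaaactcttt
RPT5B: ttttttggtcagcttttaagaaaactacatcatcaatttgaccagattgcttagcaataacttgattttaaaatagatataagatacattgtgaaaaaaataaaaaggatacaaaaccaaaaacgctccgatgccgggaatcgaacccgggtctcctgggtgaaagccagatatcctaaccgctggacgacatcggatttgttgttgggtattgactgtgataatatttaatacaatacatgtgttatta
The window of RPN8B has 2 matches, which begin 19 and 8 bases before its gene start. That of its partner RPN8A, with a log2 fold change of -0.07, has 4 matches. The windows of RPT5A and RPT5B have 0 matches, as do those of RPT6A and RPT6B. Among the 40 subunit genes 20 windows hold the motif on either strand (50%), and 14 of them hold it more than once. Of the 18805 tested protein-coding genes, 26.1% hold it and 15.9% hold it more than once. The windows with a match were 6 of 11 in the lid, 6 of 15 in the base and 8 of 14 in the core. They were 3 of the 6 genes called higher and 17 of the 34 not called. The windows of NAC53 and NAC78 have 0 matches. TGGGC is also the core of the site II element (TGGGCC or TGGGCT), and 43 of the 45 matches in subunit windows continue with C or T, so that the letters do not tell these elements apart. A match is a run of letters and not a measured binding site.

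When the copies of each subunit were added, all 31 subunits summed had both ClpD-OE libraries above both WT libraries in normalized CPM. This sum includes copies outside the 42 genes. Single genes had that order in 30.5% of all genes tested, and no such share is at hand for sums of copies. The listed genes of RPN13 and DSS1 were left out of the sums. Of these, DSS1(I) had the opposite order, with 45.2 and 45.2 CPM in WT and 43.9 and 42.6 CPM in ClpD-OE. DSS1(V) overlapped, with 23.8 and 25.9 CPM in WT and 24.6 and 25.7 CPM in ClpD-OE. RPN13 had 24.6 and 24.0 CPM in WT and 27.7 and 25.8 CPM in ClpD-OE. The fold of the summed level ran from 1.07 (PBF) to 1.49 (RPT3), with a median of 1.19. RPN8, whose B copy rose 2.19-fold, had a summed level of 80.0 and 80.4 CPM in WT and 94.5 and 89.6 CPM in ClpD-OE, 1.15-fold. RPT5 went from 120 and 122 CPM to 151 and 147 CPM (1.23-fold), and RPT6 from 102 and 103 CPM to 122 and 120 CPM (1.18-fold). The larger change of the B copies thus left these subunits within the range of the others. RPT3 and RPN11 (1.41-fold), each listed with 1 gene, had the highest summed folds. Per length, the spread among subunits was alike in both groups. In WT replicate 1 their summed FPKM ran from 36.8 to 92.8, a 2.52-fold range with a coefficient of variation of 28.1%. In ClpD-OE replicate 1 it ran from 51.3 to 136, a 2.65-fold range with a coefficient of variation of 27.1%. The deposited FPKM are scaled without TMM, so only their spread within a library is compared here. Among the 40 subunit genes taken singly, PBF1 (104 FPKM over all libraries) and PBA1 (99.2 FPKM) had the highest levels, and RPN5B (9.46 FPKM) and RPN8B (13.7 FPKM) the lowest.

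**Figure D4:**
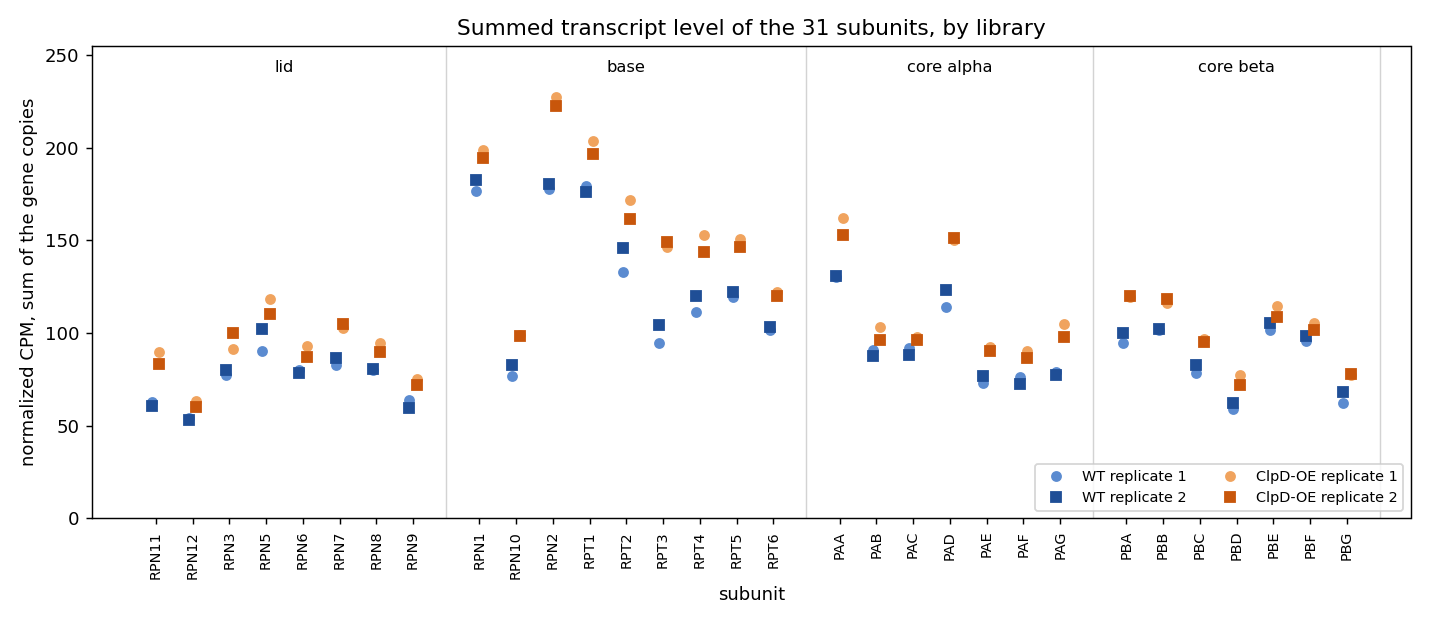
Summed normalized CPM of all listed gene copies (y axis, linear from 0) for each of the 31 subunits (x axis) in the 4 libraries, ordered by lid, base, core alpha and core beta. The listed genes of RPN13 and DSS1 are not included. In each of the 31 subunits shown, both ClpD-OE points lie above both WT points, least so for PBF (1.07-fold) and most for RPT3 (1.49-fold).

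Of the 16 other listed subunit genes, 2 were higher and 0 lower, against 4.29% and 3.91% of all genes tested. Their median log2 fold change was 0.21. PBB2, the second gene of a proteolytic subunit, had 32.5 and 31.2 CPM in WT and 44.6 and 47.3 CPM in ClpD-OE (1.44-fold, edgeR adjusted p = 0.0347). PAA2, an alpha subunit gene, had 57.5 and 58.2 CPM in WT and 81.0 and 77.3 CPM in ClpD-OE (1.37-fold, edgeR adjusted p = 0.0372). In each the groups were separate. With a library left out the log2 fold change ran from 0.48 to 0.57 for PBB2 and from 0.42 to 0.48 for PAA2. PBB2 lost its edgeR call each time, and PAA2 kept its own only without WT replicate 2. Without either ClpD-OE library every gene lost its call. Each is the copy of its pair with the lower FPKM. PAC2 was counted 9 times in each WT library and 34 and 32 times in ClpD-OE, and did not pass (edgeR adjusted p = 0.0607).

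A further list held 28 genes whose products work with the proteasome. They encode assembly chaperones, activators, ubiquitin shuttles, deubiquitylases, CDC48 proteins, ubiquitin and its activating enzymes, and others such as ECM29 and PTRE1. Of the 28, 1 was higher and 0 lower by edgeR, and the median was 0.11. That count is no larger a share than the 4.29% of all genes called higher. CDC48B, a paralog of CDC48A, an AAA-ATPase that extracts ubiquitylated proteins from membranes and complexes, was counted 204 and 135 times in WT, and 797 and 525 times in ClpD-OE. That is 10.8 and 6.54 CPM against 31.9 and 21.2 CPM. The replicates of each group differed widely, yet the groups did not overlap, and CDC48B was 3.06-fold higher (log2 1.62, SE 0.307, edgeR adjusted p = 0.0431). With a library left out its log2 fold change ran from 1.29 to 2.02. Its edgeR call was lost each time, which without either ClpD-OE library held for every gene. CDC48A had 366 and 369 CPM in WT and 450 and 434 CPM in ClpD-OE, separate between groups, with a log2 fold change of 0.26 and no call. PA200, which encodes an alternative cap of the core, had 59.2 and 52.8 CPM in WT and 72.2 and 63.9 CPM in ClpD-OE (log2 0.28, edgeR adjusted p = 0.163). Of the 28 genes, 18 had a positive log2 fold change, against 50.1% of all genes, and 10 a negative one. UBQ11, a polyubiquitin gene, was lower by DESeq2 (adjusted p = 0.00848) and did not pass in edgeR (adjusted p = 0.0731).

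In the authors' deposited table, which gives fold changes of mean FPKM, the same 6 of the 42 genes had an FDR under 0.05 and were higher, and 0 were lower. In that deposited table, 2.96% of all listed genes had such an FDR and were higher and 3.6% lower. The authors' deposited table gives RPN8B a log2 fold change of 1.35 with an FDR of 5.23e-06, and RPN8A a log2 fold change of 0.16 with an FDR of 0.958.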

How the data were processed

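RNA of 2 WT and 2 ClpD-OE libraries was analysed from 1 table. RNA was enriched with oligo(dT) beads and sequenced on an Illumina instrument, per the labels' protocols. The submitters' processing notes name TAIR10 and, without role or order, DESeq2, RSEM, HISAT2, fastp (0.18.0), StringTie (1.3.1) and Bowtie2 (2.2.8). The authors' deposited values are, per the file headers, estimated counts per gene (not normalized, all whole numbers, so that rounding changed 0 of them), FPKM, a log2 fold change, and a p-value with its FDR from a test whose tool was not given in the sources used here. FPKM served only to compare levels between genes and shares within pairs.

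Groups followed the genotype labels. The replicates differed by more than sampling noise (chi-square per degree of freedom 18.6 in WT and 10.2 in ClpD-OE). Counts were tested over the whole table with edgeR 4.0.16 in R 4.3.3 (TMM, filterByExpr, quasi-likelihood test, genotype only, Benjamini-Hochberg over 18940 genes), with a common biological coefficient of variation of 0.140. DESeq2 1.42.0, other scalings and filters, the replicate number as a block and leaving out each library were alternatives. The test was checked on simulated counts. Normalized CPM come from the TMM-scaled totals. Pair ratios are log2(CPM + 0.5) of copy B minus that of copy A, tested with an exact permutation test in SciPy 1.17.1. No intervals for counting error are given, since PCR copies carry no molecular identifier.

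The genes, lists and motif were chosen with earlier results of these data known. Full statistics go to NAC53, NAC78, every called gene and both copies of a pair with a called gene, and of the partner lists to called genes, CDC48A and PA200. Other genes (the lid, base and core genes next to the threshold or at an end of a range, PBA1, PBE1, PBB1, RPN10, PAC2 and UBQ11) were named after their values were seen. Promoter windows, shared stretches of 50 bases and overlaps of genes come from the RefSeq genome and annotation of TAIR10.1, matched by locus code for all 42 genes. Some promoter windows are not reported here.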

Additional observations from a re-analysis of the deposited data

How the results depend on the processing

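Of 187 values for 17 named genes under 11 alternatives, 148 kept their direction and their side of the threshold, 29 lost their call, 4 gained one and 6 changed sign. The lost calls all came with a library left out, where 1 library stands for its group and is assumed to vary like the other group. Library totals gave 2699 genes higher, 29 of the 42 proteasome genes higher and a subunit median of 0.48, and turned RPN8A to 0.16 and RPT6A to 0.20 on the log2 scale. DESeq2 gave 1195 genes lower. Leaving out each library in turn gave 0 to 1179 genes higher, 0 to 1602 lower and 0 to 4 of the proteasome genes higher with edgeR. These were 2 without WT replicate 1 (RPN8B and RPT5B; 206 genes higher and 318 lower in all), 4 without WT replicate 2 (RPN8B, RPT5B, RPT6B and RPT3), and 0 without ClpD-OE replicate 1 or 2, with 3603 and 3034 genes at an unadjusted p under 0.05. DESeq2 with a library left out, an alternative chosen after seeing the data, gave 2, 3, 0 and 2 proteasome genes higher in the same order, with 228, 619, 138 and 120 genes higher and 306, 1056, 418 and 225 lower in all. With a library left out, the log2 fold change of NAC53 ran from -0.12 (without WT replicate 2) to 0.24 and was -0.0097 without ClpD-OE replicate 2, that of NAC78 ran from -0.48 to 0.0059 (without WT replicate 1), and that of RPT6A from -0.064 to 0.0074 (without ClpD-OE replicate 1). The causes were not tested. The labels give no pairing beyond a shared number, and the correlation of replicate differences between groups was 0.293. With the replicate number as a block, 1628 genes were higher and 1885 lower, with 10 of the 42 proteasome genes higher and 0 lower. Of these 10, 1 was a core gene, PAG1 (adjusted p = 0.0295 by edgeR).

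With 2 libraries per group, 6 of 40 subunit genes passed the threshold at a median log2 fold change of 0.26, and the absence of a call does not show the absence of a difference. RPN8B and RPT5B kept their edgeR call without either WT library, RPT3 and RPT6B without WT replicate 2 alone, and RPN11 and RPN2B under none of the 4 omissions.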
